A study of Mus musculus with 6 samples.

Results

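The genes described here are a set of 40 mouse genes around the tumour suppressor p53 and the response to DNA damage, taken from a list by symbol. They hold 25 genes listed as targets whose transcription p53 raises, 5 regulators of p53 or related inhibitors, and 10 damage sensors and repair genes. Whether p53 raises each of the 25 in mouse cells was not checked here. Of the 40, 34 were measured, that is, they had at least 1 probe set annotated to that symbol alone, among 11280 genes measured in the series. They were 21 p53 targets, 4 regulators and other inhibitors, and 9 damage sensors and repair genes. Trp53 itself, the targets Bax, Plk2, Sesn2 and Rrm2b, and the kinase gene Atr were not analysed here.

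The series compared 3 samples of epidermal cells from wild type mice with 3 from K14ΔNLef1 transgenic mice on a mouse exon array, which carries several probe sets along each gene. All 6 samples came from females of 9.5 weeks on the C57BL6/CBA background, and the cells were unfractionated keratinocytes of the back skin, with RNA taken after flow sorting. The transgene drives a Lef1 lacking its amino terminus, the part that binds beta-catenin, from the keratin 14 promoter, which is active in basal keratinocytes. The samples therefore mix cells in which that promoter is active with other epidermal cells. Whether any of the mice were littermates is not given in the labels.

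p53 is a transcription factor that is held low by the ubiquitin ligase Mdm2 and its partner Mdm4 in unstressed cells. DNA breaks are sensed by the complex that holds Rad50 and Nbn, which activates the kinases Atm and Chek2; these phosphorylate p53, which escapes Mdm2 and switches on genes for cell cycle arrest, repair, cell death and its own feedback. In epidermis this response is known for keeping damaged keratinocytes, after ultraviolet light for example, from dividing, and Cdkn1a also takes part in the cell cycle exit of keratinocytes.

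The array medians of the intensity were 196.4, 190.2 and 199.8 in the wild type samples and 154.2, 190.0 and 203.2 in the K14ΔNLef1 samples. K14ΔNLef1 replicate 1 thus stood apart from the other 5 arrays, and the main results below are given with and without it. Each gene value below is the mean log2 intensity of the gene's probe sets on 1 array, and each difference is K14ΔNLef1 minus wild type on that scale. Levels are not compared between genes, since probe sets differ in brightness. Lef1 was 5.81, 7.02 and 6.26 in wild type and 11.11, 11.13 and 11.24 in K14ΔNLef1 cells (difference 4.80, SE 0.29, limma adjusted p = 4.02e-04), and was thus high on the arrays labelled K14ΔNLef1 and on no other. The median difference over all genes was -0.05, and it was 0.05 when all arrays were brought to a common median and 0.06 after quantile normalization. Among the 34 members these scalings turned the sign of 3, Btg2, Bbc3 and Phlda3, whose differences lay between -0.10 and 0.09 throughout.

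Among the 34 measured members, Cdkn1a was the only one to pass the test (limma, Benjamini-Hochberg adjusted p at or under 0.05 over all 11280 genes), and it fell 2.4-fold in K14ΔNLef1 cells. The p53 targets were mostly lower: 18 of 21 had a difference below 0, with a median of -0.42. Without K14ΔNLef1 replicate 1 it was 14 of 21, with a median of -0.24, and the median was also -0.24 when probe sets were summarised by their median. The damage sensors and repair genes were low as a class on K14ΔNLef1 replicate 1, and their median difference was -0.33 with that array and -0.04 without it. Over all genes, 131 passed (1.16%), of which 94 were lower in K14ΔNLef1 (0.833%), and 57.2% had a difference below 0. In 11.8% of all genes every K14ΔNLef1 array lay below every wild type array, and in 6.91% every one lay above. Against those shares, 26 of the 34 members had a difference below 0, 10 had every K14ΔNLef1 array below every wild type array, and 0 had every one above. The dimmest 2820 of the 11280 genes held 2 of the 34 members, and the shares were not matched for brightness. In mixed cells such as these, fewer cells of a type and less RNA per cell cannot be told apart.

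**Figure D1:**
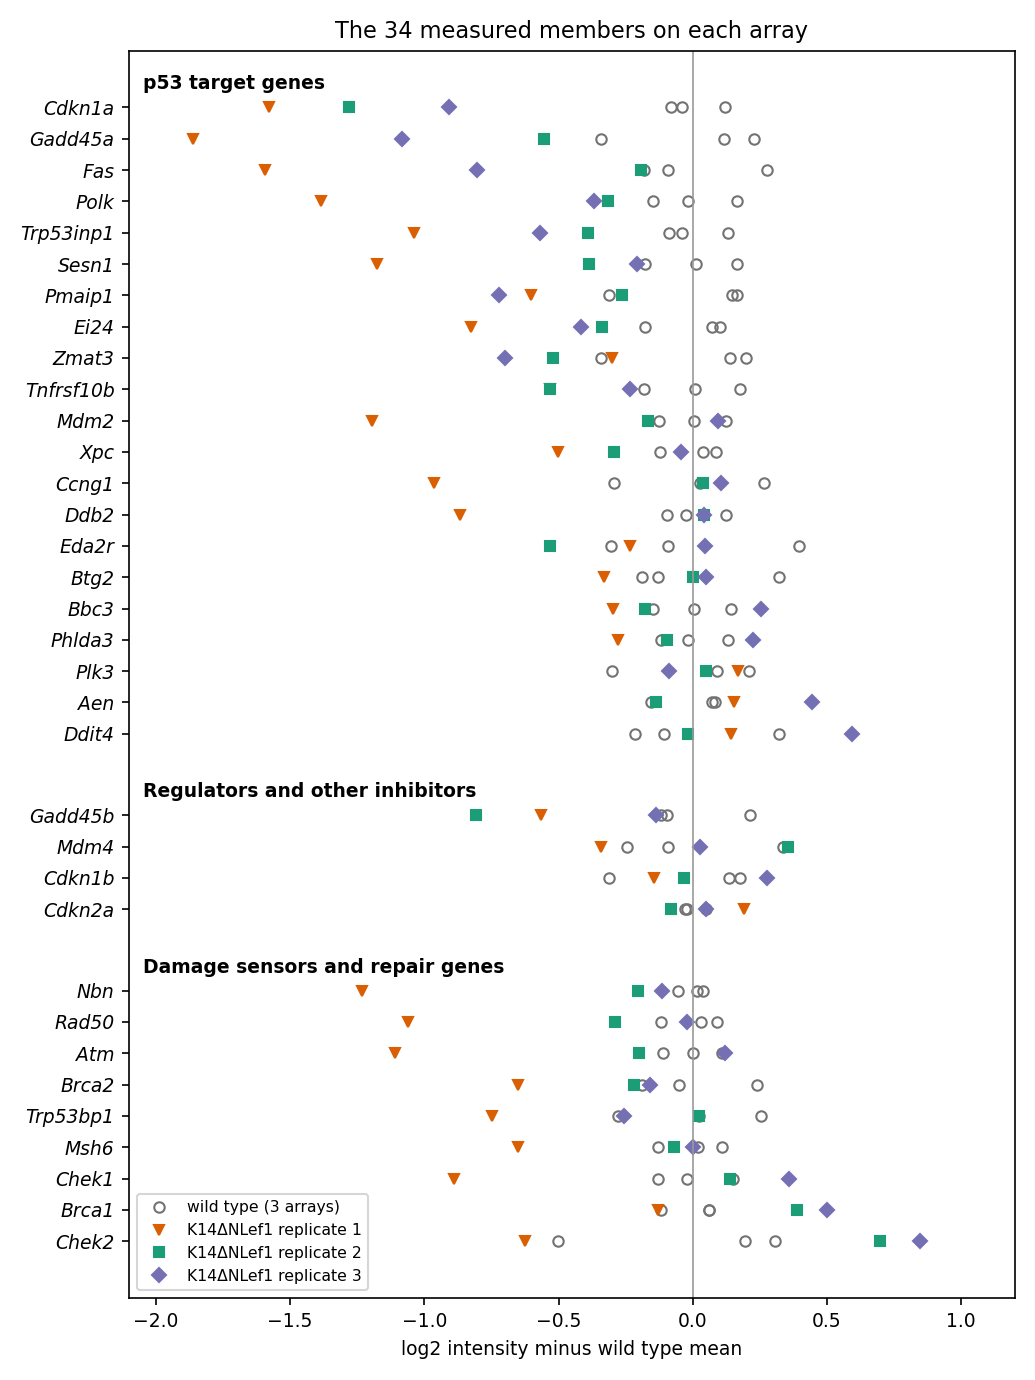
Each row is 1 measured member, and the horizontal axis is its log2 intensity on each of the 6 arrays minus the mean of the 3 wild type arrays; open circles are wild type arrays and filled symbols the 3 K14ΔNLef1 arrays. Cdkn1a lies at -1.58, -1.29 and -0.91 on the K14ΔNLef1 arrays, while most damage sensors and repair genes lie clearly to the left on K14ΔNLef1 replicate 1 only.

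Cdkn1a encodes p21, an inhibitor of cyclin-dependent kinases that stops the cell cycle and is the best known p53 target. The 3 wild type samples gave log2 intensities of 10.19, 10.03 and 9.99, and the 3 K14ΔNLef1 samples gave 8.49, 8.79 and 9.16. All 3 K14ΔNLef1 arrays lay below all 3 wild type arrays, with a gap wider than the spread within either genotype. The means were 10.07 ± 0.10 and 8.81 ± 0.34 (SD, n = 3 each), a difference of -1.26 (SE 0.21, limma adjusted p = 0.0339), and 1.1% of all genes had a difference as low or lower. All 4 of its probe sets were lower, by between -1.45 and -0.96. Without K14ΔNLef1 replicate 1 the difference was -1.10 (adjusted p = 0.0293), and it was -1.15 with all arrays brought to a common median and -1.08 after quantile normalization. The call rested on most of the arrays: it was lost without wild type replicate 1 (adjusted p = 0.173), wild type replicate 2 (0.149), wild type replicate 3 (0.155) or K14ΔNLef1 replicate 2 (0.107), with differences of -1.20, -1.28, -1.30 and -1.25. It was kept without K14ΔNLef1 replicate 3 (difference -1.44, adjusted p = 0.0385). It was also lost with adjacent sample numbers in the labels as a block (adjusted p = 0.0699). With array weights 4 of the 34 members passed, Cdkn1a, Gadd45b, Tnfrsf10b and Zmat3, and so did 1296 of all 11280 genes. Those weights were 0.150 for K14ΔNLef1 replicate 1 and 5.180 for replicate 2.

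The 250 bases before the upstream Cdkn1a start site are shown because Cdkn1a was the one member that passed and they hold matches to the sequence that p53 is known to bind. They are on GRCm38.p6 (RefSeq), 5′ to 3′ on the gene's strand, with matches to the p53 half-site, the 10-base consensus of purines, C, A or T, A or T, G and pyrimidines that p53 binds in pairs, in capitals.
Cdkn1a, chr17:29090729-29090978 (+): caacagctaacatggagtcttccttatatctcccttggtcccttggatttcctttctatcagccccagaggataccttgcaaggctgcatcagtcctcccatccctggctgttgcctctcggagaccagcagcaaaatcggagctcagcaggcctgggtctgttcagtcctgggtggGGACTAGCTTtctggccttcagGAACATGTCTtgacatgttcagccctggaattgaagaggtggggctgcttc
The first match begins 73 bases and the second 51 bases before the start site, 12 bases apart. The 10 bases that follow the second match also match the half-site in 9 of 10 positions. RefSeq gives Cdkn1a a second start site 2790 bases downstream, and the 250 bases before that one hold no match.

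The half-site was searched on both strands, which read the same for this palindromic consensus, in the 250 bases before every RefSeq start site of each gene. It was found for 8 of the 15 measured p53 targets that have such a window (53.3%), for 0 of 4 regulators and other inhibitors and for 0 of 7 damage sensors and repair genes, against 2216 of 27025 genes (8.2%). A pair of half-sites 0 to 13 bases apart was found for Cdkn1a alone among the 26 members with a window, against 18 of 27025 genes (0.1%). The p53 targets were listed as such from earlier knowledge, so their share of half-sites is a description of the list. The stretches of 30 bases around the match in the other 7 targets are shown to let the sites be compared, again with the half-site in capitals.
Aen, chr7:78895927-78895956 (+): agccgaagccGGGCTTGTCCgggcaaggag
Ccng1, chr11:40755452-40755481 (-): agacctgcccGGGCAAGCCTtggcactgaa
Ei24, chr9:36797335-36797364 (-): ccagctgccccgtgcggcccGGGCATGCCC
Gadd45a, chr6:67037428-67037457 (-): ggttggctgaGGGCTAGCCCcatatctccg
Mdm2, chr10:117710925-117710954 (-): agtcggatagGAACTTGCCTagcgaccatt
Polk, chr13:96519399-96519428 (-): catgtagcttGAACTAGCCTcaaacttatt
Sesn1, chr10:41887256-41887285 (+): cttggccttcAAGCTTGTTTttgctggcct
The 8 targets with a half-site had a median difference of -0.56, and 7 were lower, with 5 wholly below wild type. The 7 targets with a window and no half-site had a median of -0.07, and 5 of them were lower, with 1 wholly below wild type. Of all genes 11.8% lay wholly below. Without K14ΔNLef1 replicate 1 the medians were -0.32 and 0.02. No test was made of this difference between small groups, and a match in these windows is not evidence of binding. The comparison leaves out the measured targets with no window. These were Trp53inp1, Pmaip1, Zmat3, Tnfrsf10b, Xpc and Ddb2, with differences of -0.66, -0.53, -0.51, -0.44, -0.28 and -0.26. The letters CTTTGA, the core that Lef1 and its relatives bind, searched on both strands, were found in the windows of Aen and Fas, 2 of 15 targets (13.3%), and of 15.8% of all genes.

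The other p53 targets that act on arrest and growth did not pass. Gadd45a, a small stress-induced protein that binds p21 and proliferating cell nuclear antigen, was 8.06, 7.49 and 7.95 in wild type and 5.97, 7.28 and 6.75 in K14ΔNLef1 cells. All 3 K14ΔNLef1 arrays lay below all wild type arrays, K14ΔNLef1 replicate 2 by the smallest step. The difference was -1.17 (SE 0.33, adjusted p = 0.199) and -0.82 without K14ΔNLef1 replicate 1. The adjusted p was between 0.111 and 0.546 with 1 array left out. All 6 probe sets were lower, by -2.65, -2.38, -1.05, -0.62, -0.22 and -0.07. With their median in place of their mean, the Gadd45a difference was -0.76.

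Zmat3, an RNA-binding zinc finger protein, was 6.54, 6.06 and 6.60 in wild type and 6.10, 5.88 and 5.70 in K14ΔNLef1 cells. K14ΔNLef1 replicate 1 lay within the wild type range and the other K14ΔNLef1 arrays below it. Its difference was -0.51 (adjusted p = 0.401) and, unlike that of most members, was larger without K14ΔNLef1 replicate 1 (-0.61). With the median of its 7 probe sets in place of their mean, the difference was -0.24. Btg2, an antiproliferative gene of the Btg and Tob family, and Plk3, a polo-like kinase, had differences of -0.10 and 0.05 with overlapping genotypes, and of 0.02 and -0.01 without K14ΔNLef1 replicate 1. Zmat3 and Plk3 were dim, among the genes that the filter on low values left out. The 5 genes of this role had a median difference of -0.51, and -0.61 without K14ΔNLef1 replicate 1.

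**Figure D2:**
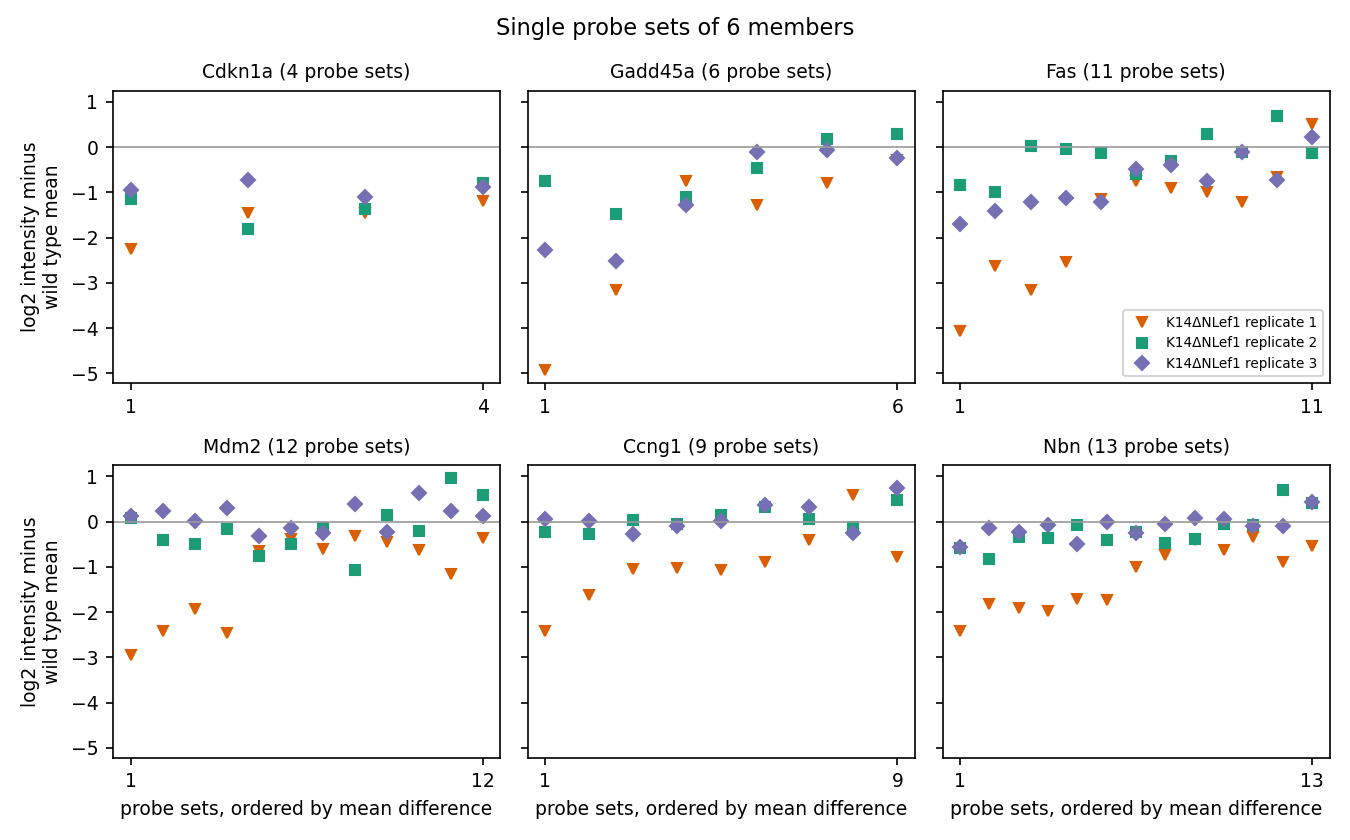
Each panel is 1 member, with its probe sets along the horizontal axis in order of their mean difference and, on the vertical axis, the log2 intensity of each of the 3 K14ΔNLef1 arrays minus the wild type mean. All 4 Cdkn1a probe sets lie below 0 on all 3 arrays, whereas for Mdm2, Ccng1 and Nbn the lowest values are those of K14ΔNLef1 replicate 1.

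The feedback targets were below wild type mainly on K14ΔNLef1 replicate 1. Mdm2, the ubiquitin ligase that degrades p53, was 9.14, 8.89 and 9.02 in wild type and 7.82, 8.85 and 9.11 in K14ΔNLef1 cells. K14ΔNLef1 replicate 1 lay far below the other 5 arrays, replicate 2 just below the lowest wild type array and replicate 3 within the wild type range. The difference was -0.42 (SE 0.32, adjusted p = 0.673) and -0.04 without K14ΔNLef1 replicate 1. Ccng1, cyclin G1, which brings a phosphatase to Mdm2, was 10.01, 9.69 and 10.25 in wild type and 9.02, 10.02 and 10.09 in K14ΔNLef1 cells. Again only K14ΔNLef1 replicate 1 was low, and the difference turned from -0.27 to 0.07 without it.

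Of the metabolic stress targets, Sesn1, a sestrin that restrains the growth kinase complex mTORC1, was 9.54, 9.69 and 9.35 in wild type and 8.35, 9.14 and 9.32 in K14ΔNLef1 cells. The genotypes did not overlap, although K14ΔNLef1 replicate 3 came close to the lowest wild type array, and the difference was -0.59 (adjusted p = 0.463), or -0.29 without K14ΔNLef1 replicate 1. Ddit4, which also restrains mTORC1, had the highest difference of the p53 targets, 0.24, with 7.85, 7.96 and 8.39 in wild type and 8.21, 8.05 and 8.66 in K14ΔNLef1 cells. Its genotypes overlapped, and the difference was 0.29 without K14ΔNLef1 replicate 1.

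The cell death targets were the largest role, with 9 measured genes, of which 8 had a difference below 0 (57.2% of all genes) and 4 lay wholly below wild type (11.8% of all genes). Their median difference was -0.44, and -0.37 without K14ΔNLef1 replicate 1. Fas, the death receptor of the cell surface, was 8.32, 8.69 and 8.23 in wild type and 6.82, 8.22 and 7.61 in K14ΔNLef1 cells. The genotypes did not overlap, but K14ΔNLef1 replicate 2 was next to the lowest wild type array. The difference was -0.87 (SE 0.34, adjusted p = 0.367) and -0.50 without K14ΔNLef1 replicate 1, and 10 of 11 probe sets were lower.

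Trp53inp1, a nuclear protein that helps p53 switch on death genes, was 8.90, 8.95 and 9.12 in wild type and 7.95, 8.60 and 8.42 in K14ΔNLef1 cells. All 3 K14ΔNLef1 arrays were below wild type, with a difference of -0.66 (SE 0.21, adjusted p = 0.254) and -0.48 without K14ΔNLef1 replicate 1. All 6 of its probe sets were lower. Ei24, a membrane protein of the endoplasmic reticulum, was 9.83, 9.55 and 9.80 in wild type and 8.90, 9.39 and 9.31 in K14ΔNLef1 cells. It too was below wild type on all 3 arrays and in all 12 probe sets, with a difference of -0.53 (SE 0.20, adjusted p = 0.351) and -0.37 without K14ΔNLef1 replicate 1.

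Tnfrsf10b, the receptor for the death ligand Trail, was 7.41, 7.24 and 7.05 in wild type and 6.70, 6.70 and 7.00 in K14ΔNLef1 cells. The genotypes did not overlap, with K14ΔNLef1 replicate 3 nearest to wild type (difference -0.44, adjusted p = 0.415, and -0.39 without K14ΔNLef1 replicate 1). The difference was -0.16 when the median of its 10 probe sets replaced their mean. Pmaip1, which encodes the Bcl2 family protein Noxa, was 7.35, 7.37 and 6.89 in wild type and 6.60, 6.94 and 6.48 in K14ΔNLef1 cells. Its K14ΔNLef1 replicate 2 lay within the wild type range (difference -0.53, adjusted p = 0.387, and -0.49 without K14ΔNLef1 replicate 1). The 4 Pmaip1 probe sets differed by -1.88, -0.29, -0.12 and 0.19, and their median gave a difference of -0.16. Bbc3, which encodes the related protein Puma, differed by -0.07, Eda2r, a receptor for ectodysplasin A2, by -0.24, Phlda3, an inhibitor of the kinase Akt, by -0.05 and Aen, an apoptosis nuclease, by 0.15. Without K14ΔNLef1 replicate 1 they differed by 0.04, -0.24, 0.06 and 0.15. Those 4 genes overlapped between genotypes, and their K14ΔNLef1 arrays lay on both sides of the wild type mean.

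The targets that supply repair were lower mainly on K14ΔNLef1 replicate 1. Polk, a polymerase that copies past damaged bases, was 7.74, 7.92 and 7.61 in wild type and 6.37, 7.44 and 7.39 in K14ΔNLef1 cells. The genotypes did not overlap, and the difference was -0.69 (adjusted p = 0.416), or -0.34 without K14ΔNLef1 replicate 1. Xpc and Ddb2, which recognise bulky lesions for nucleotide excision repair, had differences of -0.28 and -0.26, or -0.17 and 0.05 without that array. Ddb2 was 8.49 on both other K14ΔNLef1 arrays, inside its wild type range of 8.35 to 8.57.

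The regulators and other inhibitors were close to wild type apart from Gadd45b. Gadd45b, a relative of Gadd45a that is induced by stress and cytokines, was 6.77, 7.08 and 6.75 in wild type and 6.30, 6.06 and 6.73 in K14ΔNLef1 cells. The genotypes did not overlap, by a very small gap for K14ΔNLef1 replicate 3, and the difference was -0.50 (SE 0.22, adjusted p = 0.433), or -0.47 without K14ΔNLef1 replicate 1. The 4 Gadd45b probe sets differed by -1.50, -0.49, -0.02 and 0.00. The Gadd45b difference was -0.34 when their median replaced their mean. Cdkn2a, whose locus encodes the kinase inhibitor p16 and the Mdm2 inhibitor Arf, was 7.09, 7.02 and 7.01 in wild type and 7.23, 6.96 and 7.09 in K14ΔNLef1 cells. The genotypes overlapped (difference 0.06, adjusted p = 0.925, and -0.01 without K14ΔNLef1 replicate 1), and the probe sets were not separated into those of each product.

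Cdkn1b, which encodes the kinase inhibitor p27, was 9.14, 8.69 and 9.18 in wild type and 8.86, 8.97 and 9.28 in K14ΔNLef1 cells, with overlap and a difference of 0.03, or 0.12 without K14ΔNLef1 replicate 1. Mdm4, the partner of Mdm2 that masks p53, differed by 0.01, or 0.19 without that array. Cdkn1b and Cdkn2a thus had differences near 0 on the arrays on which Cdkn1a fell, and the cause was not tested.

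The break sensors were low on K14ΔNLef1 replicate 1. Nbn, the subunit that recruits Atm to breaks, was 9.39, 9.41 and 9.32 in wild type and 8.14, 9.17 and 9.26 in K14ΔNLef1 cells. No array overlapped, since wild type spread little, but K14ΔNLef1 replicate 3 was close to wild type. The difference was -0.52 (SE 0.30, adjusted p = 0.572) and -0.16 without K14ΔNLef1 replicate 1. Rad50, the tethering subunit of the same complex, was 9.23, 9.08 and 9.29 in wild type and 8.14, 8.91 and 9.18 in K14ΔNLef1 cells. K14ΔNLef1 replicate 3 lay within the wild type range, and the difference was -0.46 (SE 0.27, adjusted p = 0.583), or -0.16 without K14ΔNLef1 replicate 1.

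The kinases differed from each other. Atm, the kinase that responds to double-strand breaks, was 7.62, 7.84 and 7.73 in wild type and 6.62, 7.53 and 7.85 in K14ΔNLef1 cells. The arrays of K14ΔNLef1 ran from far below wild type to just above it, and the difference was -0.39 (SE 0.30, adjusted p = 0.677), or -0.04 without K14ΔNLef1 replicate 1. Of its 68 probe sets, 56 were lower over all arrays. Chek2, the kinase downstream of Atm, was 6.65, 7.35 and 7.46 in wild type and 6.53, 7.85 and 8.00 in K14ΔNLef1 cells. K14ΔNLef1 replicates 2 and 3 were above every wild type array and replicate 1 below every one, so that the difference was 0.30 (adjusted p = 0.822) with replicate 1 and 0.77 without it (adjusted p = 0.219). Chek1, the kinase of replication stress, differed by -0.13, and by 0.25 without K14ΔNLef1 replicate 1.

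Among the repair genes proper, Brca1, which promotes repair by homologous recombination, was 6.45, 6.63 and 6.63 in wild type and 6.44, 6.96 and 7.07 in K14ΔNLef1 cells. As for Chek2, replicates 2 and 3 were above all wild type arrays and replicate 1 was not (difference 0.26, adjusted p = 0.695, and 0.45 without K14ΔNLef1 replicate 1, adjusted p = 0.193). The sign for Brca1 turned to -0.20 when the median of its 23 probe sets replaced their mean. Brca2, which acts in homologous recombination, was 6.84, 7.13 and 6.70 in wild type and 6.24, 6.67 and 6.73 in K14ΔNLef1 cells, with overlap (difference -0.34, SE 0.21, adjusted p = 0.599, and -0.19 without K14ΔNLef1 replicate 1). Trp53bp1, which steers breaks to end joining, was 8.21, 7.68 and 7.98 in wild type and 7.21, 7.98 and 7.70 in K14ΔNLef1 cells, also with overlap (difference -0.33, SE 0.25, adjusted p = 0.670, and -0.12 without K14ΔNLef1 replicate 1). Msh6, a mismatch recognition protein, differed by -0.24, and by -0.03 without K14ΔNLef1 replicate 1.

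Set against each other, the p53 targets and the damage sensors and repair genes had similar medians over all arrays (-0.42 and -0.33) and differed by array. On K14ΔNLef1 replicate 1 the p53 targets had a median of -0.60 from the wild type mean and the damage sensors and repair genes -0.75, against -0.16 for all genes. On replicate 2 the medians were -0.26, -0.07 and -0.06, and on replicate 3 they were -0.08, 0.00 and 0.03, in the same order. Both classes were thus low on the first array, and the p53 targets were the lower class on the other 2.

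By counts, 18, 18 and 12 of the 21 p53 targets lay below the wild type mean on K14ΔNLef1 replicates 1, 2 and 3, and 9, 5 and 4 of the 9 damage sensors and repair genes. Of all genes, 59.4%, 58.8% and 45.6% lay below the wild type mean on those arrays. Without K14ΔNLef1 replicate 1, 14 of 21 p53 targets had a difference below 0 with a median of -0.24, against 52.8% of all genes with a median of -0.02. Of the p53 targets 9 then lay wholly below wild type and 0 wholly above. Of the damage sensors and repair genes 1, Nbn, lay wholly below and 2, Chek2 and Brca1, wholly above, whereas 16.4% of all genes lay wholly below and 14.4% wholly above. In that fit 239 genes passed (2.12%), and Cdkn1a was the 1 member among them. The median of the p53 targets minus that of the damage sensors and repair genes was -0.09 over all arrays and -0.20 without K14ΔNLef1 replicate 1, and it was 0.03 when probe sets were summarised by their median instead of their mean.

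**Figure D3:**
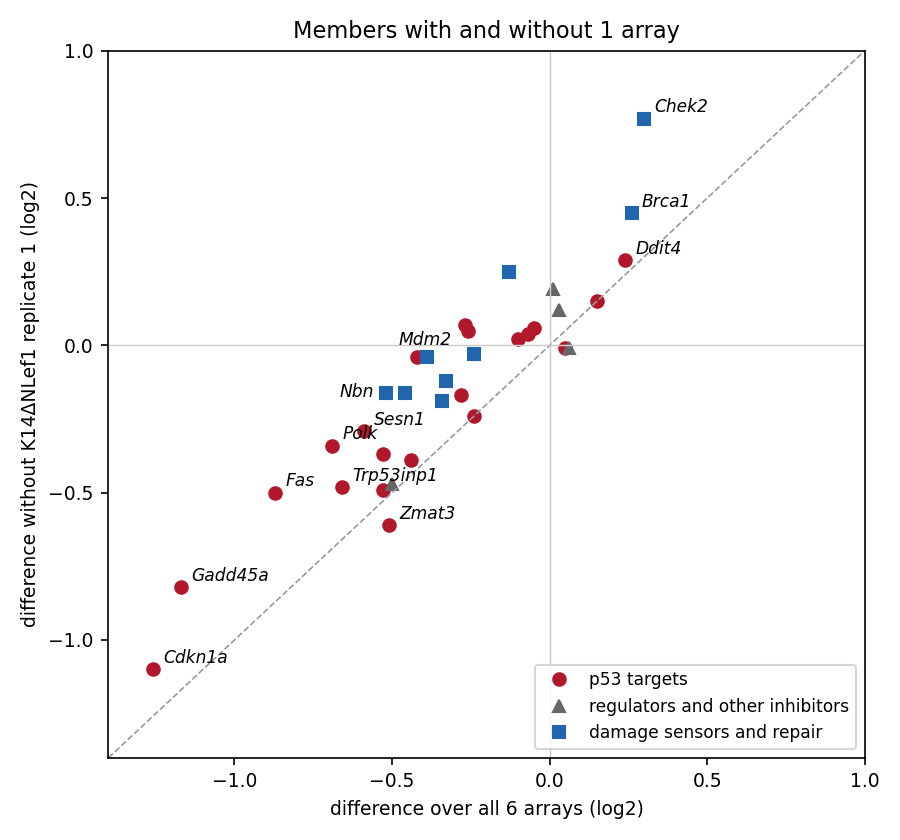
Each point is 1 measured member, with its log2 difference over all 6 arrays on the horizontal axis and without K14ΔNLef1 replicate 1 on the vertical axis; the dashed line marks equal values. Cdkn1a (-1.26 and -1.10) and Zmat3 (-0.51 and -0.61) lie near or below the line, while Mdm2, Nbn and Chek2 lie well above it.

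Lists of other genes of these pathways, none of them members, were described in the same way, and none of their genes passed. Of 30 other p53 targets 25 were measured; 16 had a difference below 0, 3 lay wholly below wild type and 1 wholly above, with a median of -0.09 against -0.05 for all genes (-0.03 against -0.02 without K14ΔNLef1 replicate 1). Of all genes 11.8% lay wholly below and 6.91% wholly above. The lowest p in that list were those of Ephx1, an epoxide hydrolase (difference -0.79, adjusted p = 0.327), and Sulf2, a sulfatase of heparan sulfate (0.46, adjusted p = 0.408). Perp, a p53 and p63 target of epidermal desmosomes, was 10.95, 11.03 and 11.28 in wild type and 10.01, 10.57 and 10.98 in K14ΔNLef1 cells, with overlap (difference -0.57, adjusted p = 0.458, and -0.32 without K14ΔNLef1 replicate 1). The lower values of the member targets were thus not matched by the median of this second list, and the difference between the lists was not tested.

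Of 16 genes of the p53 family and further p53 regulators 11 were measured, of which 9 had a difference below 0, with a median of -0.15, or -0.07 without K14ΔNLef1 replicate 1. Sirt1, a deacetylase of p53, was 8.86, 8.92 and 8.76 in wild type and 7.65, 8.38 and 8.42 in K14ΔNLef1 cells, without overlap (difference -0.70, adjusted p = 0.295, and -0.45 without K14ΔNLef1 replicate 1). Trp63, the p53 relative that maintains basal keratinocytes, was 11.40, 11.46 and 11.42 in wild type and 10.92, 11.03 and 11.30 in K14ΔNLef1 cells, also without overlap (difference -0.34, adjusted p = 0.512, and -0.26 without that array). Other cell cycle inhibitors, 6 of 7 measured, had a median of 0.09, or 0.16 without that array, and 2 were below 0. Their lowest p were those of Cdkn2c (0.37, adjusted p = 0.805) and Cdkn1c (0.14, adjusted p = 0.815).

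The 6 other lists of damage signalling and repair held 84 genes, of which 62 were measured and 49 had a difference below 0, with a median of -0.23, or -0.11 without K14ΔNLef1 replicate 1. Of the 62, 13 lay wholly below wild type and 2 wholly above, against 11.8% and 6.91% of all genes. Checkpoint and break signalling (14 of 18 measured) had a median of -0.37 and -0.13 without that array, end joining (4 of 6) -0.53 and -0.15, and translesion synthesis (5 of 6) -0.39 and -0.24. Homologous recombination and Fanconi genes (14 of 21) had -0.19 and -0.06, excision repair (21 of 26) -0.13 and -0.10, and mismatch repair (4 of 7) -0.17 and 0.11. On K14ΔNLef1 replicates 1, 2 and 3 the 62 genes had medians of -0.60, -0.15 and 0.01 from the wild type mean, against -0.16, -0.06 and 0.03 for all genes. The first array was thus the lowest. Without it, 43 of the 62 still had a difference below 0, against 52.8% of all genes, whose median was then -0.02.

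The genes of lowest p in these lists included Rad17 (difference -0.80, adjusted p = 0.317) and Rad1 (-0.68, adjusted p = 0.367), which load and form the checkpoint clamp. Xrcc4 (-0.86, adjusted p = 0.338) and Lig4 (0.69, adjusted p = 0.222), partners in end joining, lay on opposite sides of wild type, each without overlap. Lig4 was dim, and its 2 probe sets differed by 0.13 and 1.26. Ercc4 (-0.51, adjusted p = 0.305) and Ercc3 (-0.42, adjusted p = 0.393) act in nucleotide excision repair, and Rev3l (-0.70, adjusted p = 0.413) and Rad18 (-0.52, adjusted p = 0.532) in damage bypass. The others were Fancg (-0.22, adjusted p = 0.674), Exo1 (-0.25, adjusted p = 0.688) and Msh3 (-0.26, adjusted p = 0.758). Without K14ΔNLef1 replicate 1 the differences of Rad17, Rad1, Xrcc4 and Lig4 were -0.51, -0.46, -0.49 and 0.62. Those of Ercc4, Ercc3, Rev3l and Rad18 were then -0.41, -0.32, -0.34 and -0.31. Fancg, Exo1 and Msh3 were then at -0.16, -0.14 and 0.04.

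**Figure D4:**
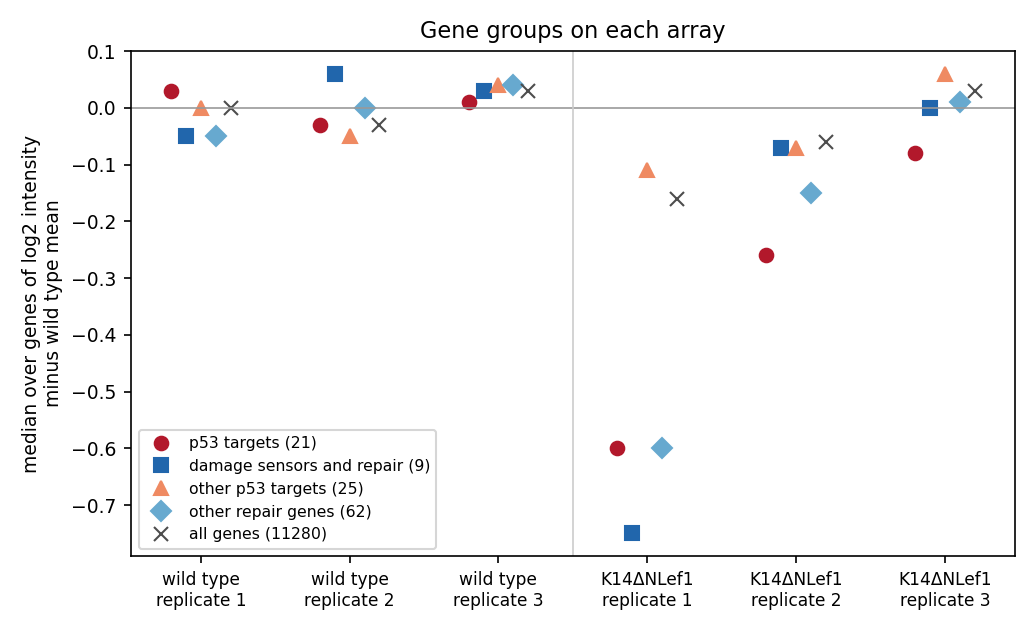
The vertical axis is the median over the genes of a list of the log2 intensity minus the wild type mean, and the horizontal axis the 6 arrays, with symbols set side by side for each list; numbers in the legend are measured genes. On K14ΔNLef1 replicate 1 the p53 targets and both repair lists lie between -0.75 and -0.60, and on replicates 2 and 3 the p53 targets are the lowest of the 5 groups drawn, at -0.26 and -0.08.

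Several other gene groups had levels that differed between arrays, and their part in the results for the members was not tested. Immediate early genes, which respond within minutes to handling and growth signals, had a mean log2 intensity of 8.42 to 8.87 in wild type and 7.89 to 8.49 in K14ΔNLef1 samples. Of their 17 measured genes 14 had a difference below 0 and 6 lay wholly below wild type (11.8% of all genes), with a median of -0.52, and -0.27 without K14ΔNLef1 replicate 1. None passed, and the lowest p were those of the transcription factor Klf4 (-0.91, adjusted p = 0.109) and the RNA-binding protein Zfp36 (-0.87, adjusted p = 0.260). On K14ΔNLef1 replicates 1, 2 and 3 this list had medians of -1.05, -0.41 and -0.14, against -0.16, -0.06 and 0.03 for all genes. The p53 targets, the damage sensors and repair genes, and all genes had the same order of arrays. Klf4 was 9.24, 9.46 and 9.32 in wild type and 8.12, 8.40 and 8.78 in K14ΔNLef1 cells, without overlap.

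Proliferation genes, 19 measured, had a mean log2 intensity of 7.82 to 8.00 in wild type and 7.59, 8.12 and 8.25 in K14ΔNLef1 replicates 1, 2 and 3. Their median difference was 0.25, and 0.34 without K14ΔNLef1 replicate 1; 11 were above 0 and 5 lay wholly above wild type (6.91% of all genes). None passed over all arrays, and 2, Ccna2 and Kif11, passed without K14ΔNLef1 replicate 1. Chek1, Chek2 and Brca1, which cycling cells are known to express more, were above the wild type mean on the same 2 arrays, K14ΔNLef1 replicates 2 and 3, by between 0.14 and 0.85. Mdm4, Ccng1 and Ddb2 were above it there too, by between 0.02 and 0.35. Over all arrays Chek1, Chek2 and Brca1 differed by -0.13, 0.30 and 0.26. With the median of their probe sets in place of the mean they differed by -0.33, 0.17 and -0.20.

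The keratinocyte marker Krt14 had a log2 intensity of 12.81 to 13.06 over the 6 arrays, with overlap between genotypes (difference 0.03). The 10 basal keratinocyte markers had a mean of 10.90 to 10.97 in wild type and 10.40, 10.72 and 10.88 in K14ΔNLef1 samples; 9 had a difference below 0 and 5 lay wholly below wild type (11.8% of all genes). Suprabasal markers, 7 of 11 measured, had means of 8.23 to 8.47 in wild type and 7.70 to 8.66 in K14ΔNLef1 samples. T cell markers (8 of 10 measured, 7 above 0) had means of 7.73 to 8.48 in wild type and 7.88, 9.43 and 8.87 in K14ΔNLef1 samples. Langerhans cell markers (9 of 10, all 9 above 0) had means of 6.66 to 7.47 and 7.00, 8.53 and 7.91. Markers of both immune cell types were thus high on K14ΔNLef1 replicates 2 and 3 and not on replicate 1, and no marker of these lists passed over all arrays. Without K14ΔNLef1 replicate 1, 7 of 8 T cell and 7 of 9 Langerhans cell markers lay wholly above wild type (14.4% of all genes), and 1, the T cell gene Cd2, passed (difference 1.22, limma adjusted p = 0.0447). Fibroblast, melanocyte and endothelial markers had median differences of 0.13, 0.37 and 0.09. Intensities have no true zero, so the absence of a cell type was not read from them.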

How the data were processed

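RNA from 3 wild type and 3 K14ΔNLef1 samples was hybridised to mouse exon arrays, and samples were grouped by the genotype in their labels. The values deposited by the authors are linear intensities, 1 for each probe set on each array. The submitters' processing notes name Affymetrix Power Tools, RMA and the build mm9; versions are not given in the sources used here. No further scaling was applied to these deposited intensities before taking log2. Of 114330 probe sets, 109751 carried 1 gene symbol by the platform annotation and were averaged per gene (median 8 per gene, 11280 genes, 1228 older symbols updated through RefSeq's GRCm38.p6 table); 834 with several symbols and 3745 with none were left out. The test was that of limma 3.58.1 run under R 4.3.3, two-sided, by lmFit and eBayes; p-values were adjusted over all genes (Benjamini-Hochberg, threshold 0.05) without a filter on low values, and the test was tried on simulated data. The number of arrays limits the precision. Samples are labelled biological replicates with no animal named for each, so p-values measure the spread between these samples.

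The members and lists were chosen with earlier results of these data known, so no list was tested. By rule, all measured members are named; values on every array are given for members that passed, for the 5 p53 targets, 3 regulators and 4 damage genes of lowest p, and for Mdm2 and Atm. Those of the other members, and of Perp and the marker genes, were chosen after their values were seen. In each other pathway list the 2 genes of lowest p are named, except 1 gene that is not reported here. Promoter windows came from RefSeq (GRCm38.p6) and were matched by symbol for 26 members. Alternatives were the gene summary, scaling, a filter on low values, variance moderation, array weights, blocks, the threshold, leaving out each array, and classing Rrm2b, Xpc, Polk and Ddb2 with the repair genes. Samples with the same replicate number had correlated deviations of -0.163, -0.172 and 0.036 over genes, so the numbers were not taken as pairs. For samples with adjacent sample numbers the correlations were 0.199, -0.075 and -0.007, and the main test did not pair these either.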

Additional observations from a re-analysis of the deposited data

How the results depend on the processing

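Cdkn1a kept its direction under every alternative run, with differences between -1.44 and -1.08, and it was the 1 member that passed under the median of probe sets, both scalings, the filter on low values, the other variance moderation and the threshold of 0.1. With array weights, 4 of the 34 members (Cdkn1a, Gadd45b, Tnfrsf10b and Zmat3) and 1296 of all 11280 genes passed. K14ΔNLef1 replicate 1 then had a weight of 0.150 and replicate 2 of 5.180, and Gadd45b was at -0.72 (limma adjusted p = 0.0265). With the replicate block 0 members passed (Cdkn1a adjusted p = 0.106) and with blocks of adjacent sample numbers 0 (0.0699); with 1 array left out the number was 0 to 1. Over all genes, 131 passed, 234 with arrays shifted to the same median, 201 after quantile normalization, 1296 with array weights, 75 with the replicate block, 236 at the threshold of 0.1 and 28 to 239 with 1 array left out. Differences of Cdkn2a and Cdkn1b near 0 turned to -0.06 and -0.02 with array weights, and with 1 array left out they ran from -0.01 to 0.13 and from -0.13 to 0.12. Over the alternatives run, the median of the p53 targets lay between -0.43 and -0.24, that of the damage sensors and repair genes between -0.40 and -0.04, and their difference between -0.20 and 0.03. The cause of these changes was not tested. Trp53 and 5 other members were not analysed here, and dim genes such as Zmat3 and Plk3 carry less signal over background.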
